A study of Homo sapiens with 24 samples.

Results

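The genes described here are 40 genes of the epithelial and mesenchymal cell states, taken from a given list of cell junction genes, epithelial regulators and mesenchymal genes. All 40 were found among the 60641 gene symbols counted in the 24 RNA-seq libraries, and they fall into 8 roles. They are 3 cadherins, 6 transcription factors of the epithelial-mesenchymal transition (EMT), 5 epithelial regulators, 13 junction and polarity genes, 4 membrane proteases and partners, 2 integrins, 5 mesenchymal genes and 2 TGF-beta ligands. The study asked how gene expression changes when the DNA-binding domain (DBD) of a noncoding transcript, the stretch predicted to pair with genomic DNA, is deleted with CRISPR/Cas9. Total RNA was depleted of ribosomal RNA and sequenced from A549, an established line of human lung adenocarcinoma, and from the colorectal carcinoma line HCT116. In A549 the deletion lines were called MSTRG.4401.1 KO and, for the other transcript, MSTRG.2513.6 KO, beside one wild type (WT B). HCT116 had 2 wild types (WT A and WT B), the same KOs as A549 and, compared here with WT A, MSTRG.34636.7 KO. Each of the 8 groups had 3 libraries. The labels name no treatment, and they do not say whether a KO line came from 1 clone or whether the libraries of a group came from separate cultures, so that p-values measure only the spread between these libraries.

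Epithelial cells are held together by adherens junctions, built on E-cadherin (CDH1), and by tight junctions, built on claudins and occludin. The regulators GRHL2, OVOL1, OVOL2, ESRP1 and ESRP2 keep this state, the first by binding DNA at junction genes and the ESRPs by directing splicing. In the transition to the mesenchymal state, factors of the ZEB, SNAI and TWIST families repress CDH1 and other junction genes, N-cadherin (CDH2) and vimentin (VIM) appear, and TGF-beta is a well-known inducer.

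Library totals ranged from 25799359 to 102261808 counts, so that 3 counts were worth 0.0293 to 0.116 counts-per-million (CPM). The shallowest group was A549 MSTRG.4401.1 KO, with 25799359 to 33205007 counts, and it also had the largest mitochondrial share of counts, 3.50% to 7.87% against 1.96% to 2.37% in A549 WT B. CDX2, an intestinal transcription factor, stood at 13.9 to 23.6 CPM in 13 of the libraries labelled HCT116, and at 0 to 1.203 CPM in the 9 A549 libraries. NKX2-1, a defining lung epithelial factor, did not exceed 0.495 CPM in A549 and reached 2.38 CPM in HCT116, so this marker of the labelled tissue was near 0 in A549, where the 5 lung markers summed to 3.31 to 7.98 CPM. The 4 leukocyte markers summed to 2.67 CPM or less in every library, and the 4 endothelial markers to 9.05 CPM or less.

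In HCT116 MSTRG.2513.6 KO, 2 of the 3 libraries had the member levels of A549 and not of HCT116. In the libraries labelled S8 and S9, CDH2 stood at 51.6 and 60.3 CPM, while in the other 13 libraries labelled HCT116, S11 included, it did not exceed 0.224 CPM. Their VIM levels were 1428 and 1332 CPM, and their ESRP1 levels 0.0636 and 0.0716 CPM. CDX2 was at 0.636 and 0.406 CPM in S8 and S9, within the A549 range. Over the 40 members, the mean of S8 and S9 lay within 0.5 of the mean of A549 MSTRG.2513.6 KO on the scale of log2(CPM + 1) for 40 members, against 26 for A549 WT B, 20 for A549 MSTRG.4401.1 KO and 1 for HCT116 WT B. Across these 40 genes, which share library depth and are not independent, r of log2(CPM + 1) with the A549 MSTRG.2513.6 KO mean was 0.998 for S8 and 0.997 for S9, and with the HCT116 WT B mean -0.20 and -0.21. S11, the remaining library of the group, had r of 0.957 or more with each other HCT116 group. The labels were kept, and results of HCT116 MSTRG.2513.6 KO are given with and without S8 and S9.

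**Figure D1:**
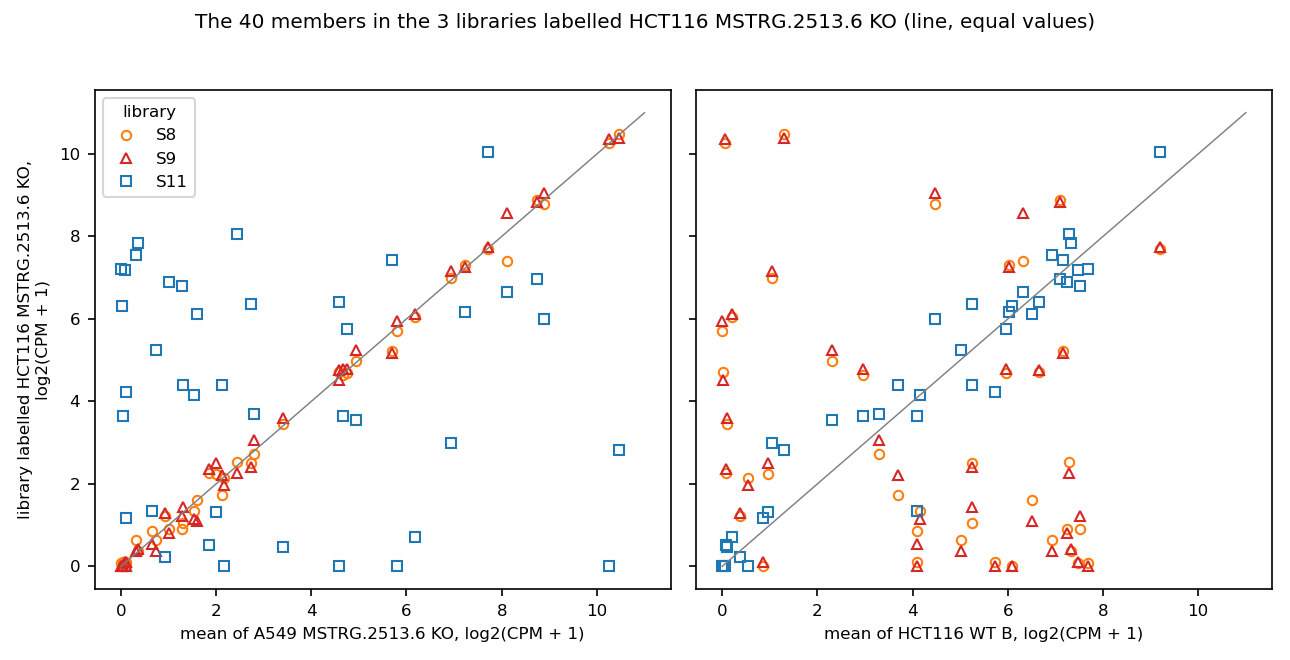
Each point is one of the 40 members in library S8 (circles), S9 (triangles) or S11 (squares), all labelled HCT116 MSTRG.2513.6 KO, on the vertical axis as log2(CPM + 1), against the mean of A549 MSTRG.2513.6 KO (left) or HCT116 WT B (right) on the horizontal axis. S8 and S9 follow the line of equal values in the left panel, and S11 follows it in the right panel.

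The wild-type lines differed in most members, with epithelial regulators and proteases lower and mesenchymal genes higher in A549. In A549 WT B against HCT116 WT B, 35 of the 40 members were called (edgeR, FDR < 0.1 and |log2(fold change)| > 1), 15 higher and 20 lower in A549, beside 35.7% of all genes tested, 17.2% higher and 18.5% lower. In bulk libraries such as these, fewer cells expressing a gene and less RNA per cell cannot be told apart.

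Among the cadherins, CDH2 was at 58.9, 70.6 and 70.2 CPM in A549 WT B and at 0 counts in the 3 HCT116 WT B libraries, at least 1298-fold higher against 3 counts per library. P-cadherin (CDH3) had the reverse pattern, with 0.187, 0.404 and 0.313 CPM in A549 and 169, 155 and 152 CPM in HCT116 (log2(fold change) -8.77 ± 0.17, adjusted p = 6.54e-08). CDH1 was close in both lines, at 60.8, 63.1 and 68.1 CPM in A549 against 98.6, 105 and 96.6 CPM, and its log2(fold change) of -0.38 ± 0.06 did not reach the fold threshold (adjusted p = 0.000989). A549 thus carried CDH1 and CDH2 transcripts, and HCT116 carried CDH1 and CDH3. ZEB1, which represses CDH1 and the miR-200 genes, stood at 26.3, 32.2 and 28.01 CPM in A549 and 3.64, 4.35 and 3.91 CPM in HCT116 (log2(fold change) 3.12 ± 0.13, adjusted p = 1.10e-06). ZEB2, its paralog, had 16.7, 18.9 and 20.1 CPM in A549 and 12 counts over the 3 HCT116 WT B libraries, a pooled difference of 271-fold (95% counting interval 155 to 526). TWIST2 had 1916 counts in A549 WT B and 3 in HCT116 WT B, which gives 706-fold (95% counting interval 241 to 3426). Of the 6 EMT factors these 3 were called. SNAI1, TWIST1 and SNAI2 were not, with log2(fold change) 0.01 ± 0.16, 0.25 ± 0.29 and 0.87 ± 0.44.

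All 5 epithelial regulators were lower in A549. GRHL2 and OVOL1 were at 0 counts in the 3 A549 WT B libraries, against 54.2, 51.1 and 51.99 CPM and 17.7, 15.6 and 14.7 CPM in HCT116 WT B, which makes them at least 906-fold and 276.9-fold lower. ESRP1 had 0.476, 0.101 and 0.120 CPM in A549 and 176, 176 and 180.4 CPM in HCT116 (log2(fold change) -9.23 ± 0.38, adjusted p = 1.17e-06). The splicing regulator ESRP2 (-5.17 ± 0.12, adjusted p = 9.19e-08) and the zinc finger factor OVOL2 (-2.34 ± 0.34, adjusted p = 0.000746) were lower as well. The junction genes did not all follow. EPCAM, an epithelial adhesion protein, was at 2.48, 2.42 and 3.15 CPM in A549 and 184, 186 and 176 CPM in HCT116 (log2(fold change) -5.83 ± 0.10, adjusted p = 4.00e-08), and CLDN3, CLDN4, CLDN7, TJP3, CRB3, MARVELD3, LLGL2 and RAB25 were lower in A549 too. Their log2(fold change) ranged from -8.27 ± 0.45 for RAB25, a trafficking GTPase, to -1.45 ± 0.11 for LLGL2, a basolateral polarity protein, with -1.67 ± 0.16, -4.83 ± 0.12 and -6.49 ± 0.18 for the claudins CLDN3, CLDN4 and CLDN7, -2.91 ± 0.17 for TJP3, -2.52 ± 0.16 for the polarity gene CRB3 and -4.11 ± 0.15 for the tight junction gene MARVELD3. CLDN1, CLDN2 (2.33 ± 0.13, adjusted p = 4.83e-06) and TJP1 (2.01 ± 0.29, adjusted p = 0.000764) were higher in A549. CLDN1 had 93.9, 116 and 102 CPM against 0.248, 0 and 0.200 CPM (log2(fold change) 9.75 ± 0.44, adjusted p = 1.85e-06). Occludin (OCLN) had 37.2, 41.5 and 42.6 CPM in A549 against 63.9, 60.9 and 59.8 CPM and was not called. The serine protease matriptase (ST14), its inhibitor SPINT1, prostasin (PRSS8) and PROM2 were lower in A549, with ST14 at 0.102, 0.168 and 0.289 CPM against 213, 205 and 200.4 CPM (log2(fold change) -9.91 ± 0.18, adjusted p = 5.35e-08). The values of SPINT1, PRSS8 and PROM2 were -6.92 ± 0.23, -5.26 ± 0.35 and -5.09 ± 0.33. The integrins went apart, with ITGB4 at -1.12 ± 0.05 and ITGB6 at 4.68 ± 0.32.

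Each of the 5 mesenchymal genes and both ligands was higher in A549. VIM was at 1404, 1494 and 1549 CPM in A549 and 1.74, 1.65 and 0.981 CPM in HCT116 (log2(fold change) 10.25 ± 0.24, adjusted p = 1.07e-07). Fibronectin (FN1) was at 281, 316 and 361 CPM in A549 against 21.1, 21.8 and 20.6 CPM (log2(fold change) 4.17 ± 0.07, adjusted p = 4.98e-08), and TGFB2 at 118, 128 and 122 CPM in A549 against 1.201, 0.904 and 1.06 CPM (log2(fold change) 7.12 ± 0.11, adjusted p = 3.71e-08). TGFBI, an extracellular protein named for its induction by TGF-beta, had 292691 counts in A549 WT B against 6 in HCT116 WT B, which gives 53909.7-fold (95% counting interval 24768 to 146901). SPARC had 1336 counts against 11, which gives 134-fold (95% counting interval 74.8 to 269.5), and S100A4 and TGFB1 had log2(fold change) 1.15 ± 0.11 and 1.48 ± 0.07. Per kilobase of annotated exon, VIM was the highest member of A549 WT B, at 286 CPM per kb, followed by S100A4 at 265 and TGFBI at 239, while in HCT116 WT B the highest were S100A4 at 144, the integrin ITGB4 at 86.96 and EPCAM at 75.04 CPM per kb. S100A4 was thus near the top in both lines, and the rest of the order was not shared. Of the 84 related genes tested 49 were called (58.3%), 32 higher and 17 lower in A549. This stands beside 35.7% of all genes (17.2% higher and 18.5% lower). Among the related genes, 13 of 18 TGF-beta receptors and targets were higher in A549, among them CCN2 (log2(fold change) 4.85 ± 0.20, adjusted p = 1.24e-06), and BMP4 was lower (-3.41 ± 0.09, adjusted p = 1.54e-07). In the desmosome list 3 of 8 were lower, led by DSC2 (-2.64 ± 0.09, adjusted p = 4.53e-07). Of 10 epithelial transcription factors tested 5 were higher, among them FOXA1 (2.51 ± 0.15), and 3 lower, led by EHF (-5.35 ± 0.14). Of 18 other mesenchymal genes tested 9 were higher, while COL6A2 (-1.85 ± 0.09) and COL6A1 (-1.60 ± 0.08) were lower. Of 8 other EMT regulators tested 2 were higher, TCF4 and FOXC2 (1.45 ± 0.40), and 2 lower. The lower were HMGA2 (-2.92 ± 0.07) and MIR200CHG, a host gene of the miR-200 family (-4.80 ± 0.55, adjusted p = 0.000223). The call of TJP1 was lost with HCT116 WT A in place of WT B (log2(fold change) 0.62, adjusted p = 0.0458).

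**Figure D2:**
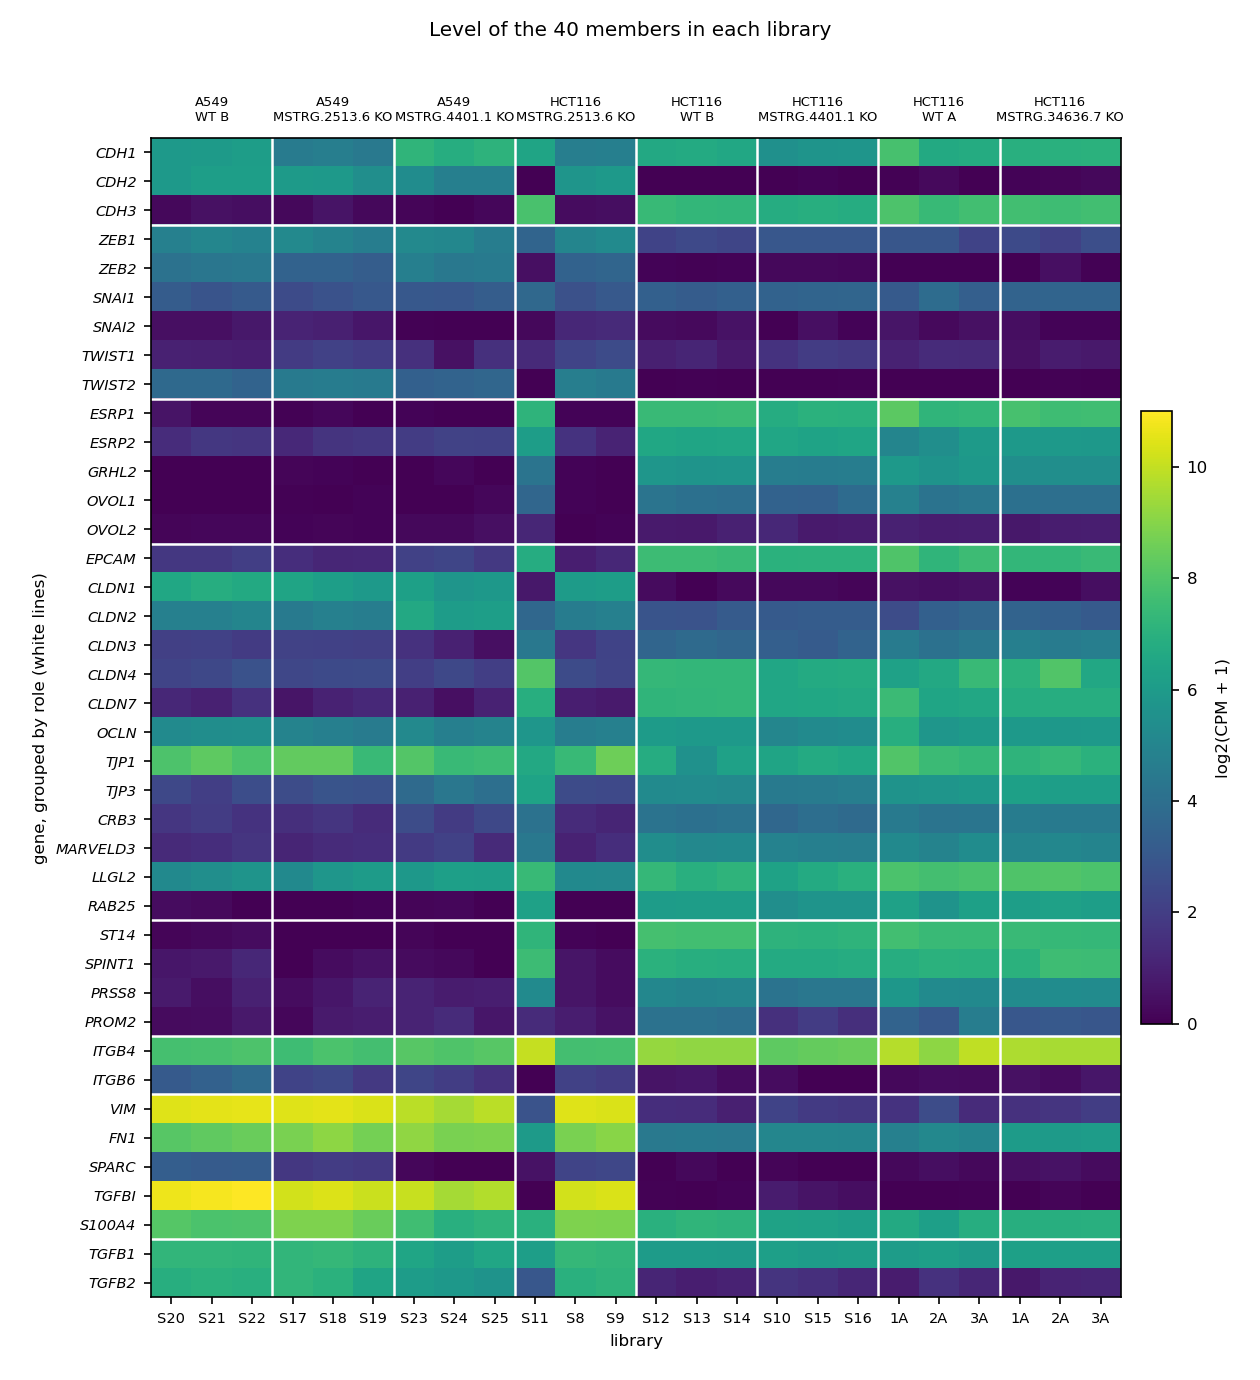
Colour gives the level, log2(CPM + 1), of each of the 40 members (rows, in 8 roles separated by white lines) in each of the 24 libraries (columns, 3 per group). A549 libraries are dark in the epithelial regulators and proteases and bright at VIM, FN1 and TGFBI, HCT116 libraries are the reverse, and S8 and S9 look like A549.

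The hexamer CACCTG, which reads CAGGTG on the opposite strand, is a form of the E-box known to be bound by ZEB and SNAI factors. Since ZEB1 and ZEB2 differed between the lines, the start-site windows of the members were searched for it. RefSeq promoters on GRCh38.p14, 250 bases before to 50 after a start site, were matched by symbol for 24 of the 40 members, with 39 windows. The motif, on either strand, stood in 13 of these 39 windows (33.3%), while 20.6% of all 35116 windows of 300 bases held it. The 13 windows belong to 11 members. Each match is also a CANNTG, which stood in 61.5% of the member windows and 68.7% of all windows. The members without an entry were CDH1, CDH3, SNAI1, SNAI2, TWIST1, ESRP1, ESRP2, GRHL2, OVOL1, OVOL2, EPCAM, MARVELD3, LLGL2, ST14, PRSS8 and ITGB4. CLDN7 (chr17:7262429-7262728, minus strand) and CRB3 (chr19:6464021-6464320, plus strand) held the most matches, 5 each, and are shown with RAB25 (chr1:156060910-156061209, plus strand, 2 matches), since all 3 were lower in A549. VIM (chr10:17227991-17228290, plus strand), higher in A549, has no match in its window and is shown beside them. Matches stood in members of both directions. ZEB1, TJP1, ITGB6 and S100A4, higher in A549, held the motif in at least 1 window, and CLDN4 and PROM2, lower in A549, held none. Capitals mark the matches.
CLDN7: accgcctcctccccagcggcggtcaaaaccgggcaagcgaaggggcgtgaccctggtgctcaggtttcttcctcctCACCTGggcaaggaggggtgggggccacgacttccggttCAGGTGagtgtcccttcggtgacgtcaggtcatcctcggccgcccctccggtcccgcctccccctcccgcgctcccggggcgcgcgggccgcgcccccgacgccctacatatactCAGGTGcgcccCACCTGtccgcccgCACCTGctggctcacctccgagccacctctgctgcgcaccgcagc
CRB3: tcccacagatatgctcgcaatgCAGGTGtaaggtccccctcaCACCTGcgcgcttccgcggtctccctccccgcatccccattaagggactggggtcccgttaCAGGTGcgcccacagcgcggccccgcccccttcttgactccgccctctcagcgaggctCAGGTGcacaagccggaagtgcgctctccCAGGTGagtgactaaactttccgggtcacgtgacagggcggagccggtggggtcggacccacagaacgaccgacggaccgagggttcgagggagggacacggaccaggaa
RAB25: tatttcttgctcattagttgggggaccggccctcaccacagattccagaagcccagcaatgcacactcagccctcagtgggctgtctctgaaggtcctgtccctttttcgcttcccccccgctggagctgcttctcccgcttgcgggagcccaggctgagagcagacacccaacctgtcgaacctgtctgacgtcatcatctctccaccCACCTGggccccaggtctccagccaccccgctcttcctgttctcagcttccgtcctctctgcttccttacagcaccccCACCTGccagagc
VIM: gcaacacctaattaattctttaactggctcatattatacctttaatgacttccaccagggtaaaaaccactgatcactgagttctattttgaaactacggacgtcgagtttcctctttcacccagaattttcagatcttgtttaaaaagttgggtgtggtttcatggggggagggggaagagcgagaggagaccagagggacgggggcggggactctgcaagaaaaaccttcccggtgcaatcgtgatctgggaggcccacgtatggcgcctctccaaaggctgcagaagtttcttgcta
CLDN7 was at 1.31, 1.04 and 1.92 CPM in A549 WT B and 148, 149.6 and 154 CPM in HCT116 WT B, CRB3 at 2.36, 2.88 and 2.09 CPM in A549 against 17.5, 15.8 and 17.4 CPM, and RAB25 at 0.272, 0.219 and 0 CPM in A549 against 65.7, 68.02 and 68.3 CPM. A match describes the letters of a window, and binding was not measured.

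In A549, deletion of the MSTRG.2513.6 DBD was accompanied by lower CDH1. CDH1 was at 22.9, 25.4 and 21.1 CPM in the KO libraries and 60.8, 63.1 and 68.1 CPM in WT B, with no overlap (log2(fold change) -1.47 ± 0.12, adjusted p = 0.000806). Of the 40 members 34 were tested, and 4 were called, 1 up and 3 down, beside 2.92% of all genes (1.13% up and 1.79% down). The 6 not tested for low counts were ESRP1, GRHL2, OVOL1, OVOL2, RAB25 and ST14, each at 0.476 CPM or less. The member that rose was TWIST1, a basic helix-loop-helix EMT factor, from 0.985, 0.942 and 0.914 CPM in WT B to 2.72, 3.35 and 2.87 CPM (log2(fold change) 1.65 ± 0.22, adjusted p = 0.00733). ITGB6, the beta subunit of an epithelial integrin that activates latent TGF-beta, fell from 7.63, 9.53 and 12.97 CPM to 3.60, 4.24 and 2.57 CPM (log2(fold change) -1.51 ± 0.25, adjusted p = 0.0198). SPARC, a secreted matrix-binding protein of mesenchymal cells, fell from 8.70, 8.04 and 8.32 CPM to 2.47, 2.92 and 2.50 CPM (log2(fold change) -1.67 ± 0.17, adjusted p = 0.00258). The groups did not overlap in any of the 4, which adds no separate support since they were called on these same libraries. With FDR alone, 11 members passed, 4 with positive and 7 with negative values, beside 5.97% of all genes. Those that missed the fold threshold were TWIST2 at 0.94 ± 0.15, S100A4 at 0.77 ± 0.16 and FN1 at 0.57 ± 0.14 above WT B, and ZEB2 at -0.96 ± 0.14, EPCAM at -0.91 ± 0.23, OCLN at -0.63 ± 0.13 and TGFBI at -0.59 ± 0.12 below it. TWIST1 and TWIST2 were thus both above WT B, and ZEB2 was below it. The remaining reference genes did not pass, with log2(fold change) -0.27 ± 0.17 for CDH2, -0.08 ± 0.10 for VIM, 0.04 ± 0.17 for ZEB1 and 0.99 ± 0.39 for SNAI2 (adjusted p = 0.257). Every call was kept when any 1 library was left out.

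Of 92 related genes in 6 further lists 83 were tested, and 6 were called (7.23%), beside 2.92% of all genes. In the desmosome list 1 of 8 tested was called, the desmosomal cadherin DSC2 (log2(fold change) -1.97 ± 0.21, adjusted p = 0.00291), and among other junction genes 1 of 22, cingulin CGN (-1.59 ± 0.16, adjusted p = 0.00214), both lower. Of 10 epithelial transcription factors 2 were called, both higher, EHF (2.63 ± 0.28, adjusted p = 0.00291) and GRHL3 (1.48 ± 0.26, adjusted p = 0.0228). Called lower were 1 gene among 18 TGF-beta receptors and targets, LTBP1 (-1.01 ± 0.11, adjusted p = 0.00400), and 1 among 18 tested other mesenchymal genes, COL1A1 (-1.45 ± 0.23, adjusted p = 0.0161). Of the other EMT regulators, called genes were 0 of 7 tested by edgeR (3 at an unadjusted p under 0.05, 0 called by DESeq2).

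In A549 with the MSTRG.4401.1 DBD deleted, CDH2, SNAI2, SPARC, TGFBI and TGFB2 were lower, and CDH1 was higher short of the fold threshold. CDH1 stood at 144, 115 and 138 CPM, above all WT B libraries, with log2(fold change) 0.97 ± 0.11 (adjusted p = 0.000851). CDH2 fell to 39.4, 25.6 and 26.1 CPM from 58.9, 70.6 and 70.2 CPM (log2(fold change) -1.21 ± 0.16, adjusted p = 0.00146). Of the 33 members tested 11 were called, 3 up and 8 down, beside 15.4% of all genes (11.1% up and 4.32% down). The median log2(fold change) over the 33 was -0.27, and over all genes 0.12, which moved to 0.28 with upper-quartile normalization and 0.06 with DESeq2, where 83.1% and 65.98% of called genes were up in place of 71.9%. SPARC had 5 counts over the 3 KO libraries and 1336 in WT B, a pooled fall of 142-fold (95% counting interval 60.9 to 439). SNAI2, an EMT factor of low level, had 2 counts against 70, a fall of 18.7-fold (95% counting interval 4.98 to 157). TGFB2 was at 66.1, 56.8 and 49.4 CPM against 118, 128 and 122 CPM (log2(fold change) -1.18 ± 0.11, adjusted p = 0.000348), and TGFBI at 1093, 739.6 and 855 CPM against 1711, 1832 and 1999 CPM (log2(fold change) -1.12 ± 0.16, adjusted p = 0.00183). ITGB6 fell here too, to 3.88, 2.98 and 1.98 CPM (log2(fold change) -1.84 ± 0.26, adjusted p = 0.00217). The call of TGFBI was lost with upper-quartile normalization (-0.96). In each of these genes the 3 KO libraries lay below the 3 of WT B, which calling on the same libraries favours.

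The junction members of this KO line went in both directions. CLDN2, a claudin that forms cation-selective pores, was at 97.2, 66.2 and 71.3 CPM against 26.7, 26.4 and 31.6 CPM (log2(fold change) 1.39 ± 0.14, adjusted p = 0.000494), and TJP3 (ZO-3), a tight junction scaffold, at 13.1, 19.3 and 15.4 CPM against 4.23, 3.13 and 5.004 CPM (log2(fold change) 1.88 ± 0.23, adjusted p = 0.00102). CLDN3 was at 1.93, 1.01 and 0.381 CPM against 3.19, 3.38 and 2.77 CPM (log2(fold change) -1.58 ± 0.46, adjusted p = 0.0302), and SPINT1 at 0.241, 0.194 and 0 CPM against 0.577, 0.689 and 1.32 CPM (log2(fold change) -2.57 ± 0.74, adjusted p = 0.0295). PROM2, a protein of plasma membrane protrusions, overlapped between the groups, at 1.11, 1.59 and 0.610 and 0.255, 0.286 and 0.698 CPM (log2(fold change) 1.37 ± 0.51, adjusted p = 0.0672), and its call was lost without S23, S24, S20 or S21 (log2(fold change) 1.02 to 1.33, adjusted p = 0.132 to 0.227), with no filter and in the fit of all A549 libraries. By FDR alone 20 of 33 members passed, 6 positive and 14 negative, beside 43.7% of all genes. VIM was at 943, 732 and 930.3 CPM (log2(fold change) -0.85 ± 0.14, adjusted p = 0.00356) and TGFB1 at 87.7, 68.6 and 89.3 CPM (log2(fold change) -0.94 ± 0.13, adjusted p = 0.00192), both under WT B by less than the fold threshold. FN1 went the other way, at 573, 447 and 454 CPM (log2(fold change) 0.55 ± 0.12, adjusted p = 0.0118). ZEB1 and EPCAM did not pass, with log2(fold change) 0.03 ± 0.14 and 0.22 ± 0.23. The 7 members not tested were CDH3, ESRP1, GRHL2, OVOL1, OVOL2, RAB25 and ST14. The mitochondrial share of these libraries, given above, moves with this comparison, and its part in the result was not tested.

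Of 81 related genes tested in this KO line 20 were called (24.7%), 3 up and 17 down, beside 15.4% of all genes. Of 16 other mesenchymal genes tested in it, 0 were up and 10 were down, with a median log2(fold change) of -1.29. The 3 with the largest fall were the gelatinase MMP2 (log2(fold change) -5.02 ± 0.35, adjusted p = 9.02e-05), tenascin TNC (-3.26 ± 0.65, adjusted p = 0.00736) and collagen COL5A1 (-2.45 ± 0.12, adjusted p = 2.05e-05). Of 18 TGF-beta receptors and targets 5 were down, among them THBS1 (-1.90 ± 0.11, adjusted p = 3.85e-05) and the receptor TGFBR1 (-1.63 ± 0.15, adjusted p = 0.000343), and 1 was up, BMP4 (2.21 ± 0.13, adjusted p = 4.07e-05). In the epithelial lists, DSC3 (1.56 ± 0.19, adjusted p = 0.00105) and AFDN (1.08 ± 0.35, adjusted p = 0.0435) were up, and TP63 (-2.45 ± 0.45, adjusted p = 0.00525) and FOXA1 (-1.19 ± 0.17, adjusted p = 0.00197) were down. Of the other EMT regulators, called genes were 0 of 7 tested by edgeR (2 at an unadjusted p under 0.05, 0 called by DESeq2). The fibroblast markers summed to 22.6 to 26.2 CPM in this KO, 32.2 to 46.1 CPM in A549 WT B and 11.2 to 19.2 CPM with the MSTRG.2513.6 KO, and COL1A1 is both such a marker and a related gene. The 6 intestinal markers summed to 16.998 to 22.4 CPM in this KO against 7.98 to 11.8 CPM in WT B. The 5 lung markers summed to 6.29 to 7.98 CPM against 3.31 to 4.76 CPM. The part of these markers in the results was not tested.

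**Figure D3:**
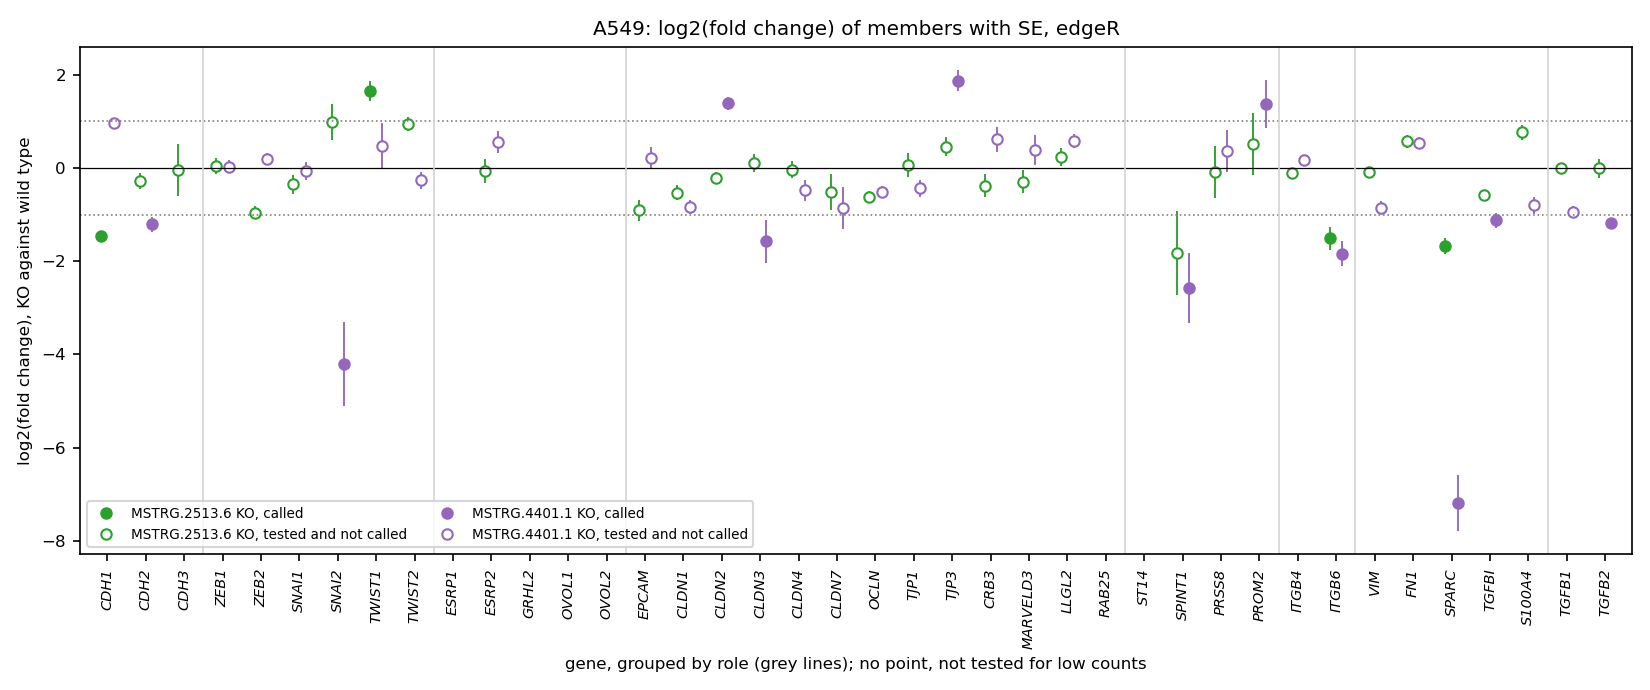
Points give the log2(fold change) of each tested member against A549 WT B (vertical axis) with its SE, for MSTRG.2513.6 KO (green) and MSTRG.4401.1 KO (purple), genes ordered by role; filled points were called and dotted lines mark the fold threshold. CDH1 lies on opposite sides of 0 in the 2 KOs, and SPARC and ITGB6 lie below -1 in both.

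Both A549 KOs were compared with the same WT B libraries, so they were also tested against each other. Of 32 members tested 12 were called, 5 higher and 7 lower in MSTRG.4401.1 KO, beside 16.6% of all genes (10.9% higher and 5.75% lower). Of all called genes 65.4% were higher, and 79.8% with upper-quartile normalization. The largest difference among the cadherins was that of CDH1, at 144, 115 and 138 CPM in MSTRG.4401.1 KO and 22.9, 25.4 and 21.1 CPM in MSTRG.2513.6 KO (log2(fold change) 2.37 ± 0.16, adjusted p = 4.11e-05). The EMT factors split. ZEB2 was at 25.7, 20.3 and 21.2 CPM against 10.02, 10.1 and 8.54 CPM (log2(fold change) 1.08 ± 0.17, adjusted p = 0.00293), while TWIST2 was at 9.43, 10.3 and 11.5 CPM against 22.5, 23.9 and 22.02 CPM (log2(fold change) -1.27 ± 0.16, adjusted p = 0.00113). TWIST1 (-1.24 ± 0.47, adjusted p = 0.0807) and SNAI2, with 2 counts against 154, were lower in MSTRG.4401.1 KO too. Higher in it were CLDN2 (1.54 ± 0.17, adjusted p = 0.000453), TJP3 (1.35 ± 0.20, adjusted p = 0.00226) and EPCAM, the last at 3.40, 3.95 and 2.52 CPM against 1.69, 1.26 and 1.31 CPM (log2(fold change) 1.06 ± 0.27, adjusted p = 0.0223). Lower were SPARC, with 5 counts against 442, S100A4 at 196, 123 and 140.2 CPM against 464, 463 and 356 CPM (log2(fold change) -1.63 ± 0.21, adjusted p = 0.00102), TGFB2 (-1.23 ± 0.22, adjusted p = 0.00502) and CLDN3 (-1.74 ± 0.45, adjusted p = 0.0227). CDH2 and VIM passed the FDR but not the fold threshold, at -0.998 ± 0.22, adjusted p = 0.0116 and -0.83 ± 0.17, adjusted p = 0.00864. ZEB1 (-0.08 ± 0.19) and FN1 (-0.09 ± 0.17) passed neither. Leaving out 1 library ended the calls of ZEB2 (without S23, log2(fold change) 0.98), EPCAM (without S18 or S24, 0.96 and 0.93) and TWIST1 (without S17, S18 or S24, -1.28, -1.16 and -0.81). Of 81 related genes tested 27 were called (33.3%), 9 higher and 18 lower, beside 16.6% of all genes. The related genes DSC2 (2.42 ± 0.23, adjusted p = 0.000256) and CGN (2.05 ± 0.18, adjusted p = 0.000152) were higher in MSTRG.4401.1 KO, and desmosomal PKP3 (-1.39 ± 0.26, adjusted p = 0.00605) was lower. EHF (-2.24 ± 0.40, adjusted p = 0.00484) and GRHL3 (-2.49 ± 0.37, adjusted p = 0.00230) were lower, and GRHL1 (1.68 ± 0.44, adjusted p = 0.0227) was higher. Of 18 TGF-beta receptors and targets 2 were higher, BMP4 (2.11 ± 0.16) and INHBA (2.71 ± 0.84), and 5 lower. FOXC2 was the 1 other EMT regulator called (1.09 ± 0.27). Of 16 other mesenchymal genes tested 0 were higher and 9 lower. SPINT1 joined the 7 members named above as too low to test.

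In HCT116 with the MSTRG.4401.1 DBD deleted, CDH1, GRHL2 and PROM2 fell, and many other epithelial members were lower by less than the fold threshold. CDH1 was at 45.5, 50.9 and 51.96 CPM in the KO and 98.6, 105 and 96.6 CPM in WT B (log2(fold change) -1.03 ± 0.06, adjusted p = 0.000117). GRHL2 was at 24.004, 23.9 and 24.5 CPM and 54.2, 51.1 and 51.99 CPM (log2(fold change) -1.13 ± 0.05, adjusted p = 3.22e-05), and PROM2 at 1.86, 2.84 and 1.82 CPM and 16.9, 16.5 and 15.1 CPM (log2(fold change) -2.91 ± 0.19, adjusted p = 0.000172). The 3 KO libraries were below all WT B libraries in each of these genes, which calling on the same libraries favours. TWIST1 rose from 0.973, 1.22 and 0.682 CPM to 2.07, 2.93 and 2.50 CPM (log2(fold change) 1.36 ± 0.26, adjusted p = 0.0159). TGFBI, near 0 in HCT116, had 79 counts in the KO and 6 in WT B, a rise of 16.3-fold (95% counting interval 7.17 to 45.8) that leaves it at 0.310 to 0.814 CPM. DESeq2 gave TGFBI no adjusted p. These 5 calls among 35 tested members, 2 up and 3 down, stand beside 2.62% of all genes (0.996% up and 1.62% down). CDH2, ZEB2, TWIST2, CLDN1 and SPARC were not tested, at 0.248 CPM or less.

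By FDR alone, 25 of the 35 tested members passed, 5 with positive and 20 with negative log2(fold change), beside 7.57% and 8.72% of all genes. The median over the 35 members was -0.49, and over all genes 0.00339. The 20 were distributed over the epithelial roles. They were both tested cadherins, 3 of 5 epithelial regulators, 9 of 12 tested junction and polarity genes, 4 of 4 membrane proteases and partners, ITGB4, and S100A4, which is listed as mesenchymal. ITGB4, the beta subunit of the hemidesmosome integrin, was at 310.3, 341 and 359.5 CPM against 611, 575 and 578 CPM (log2(fold change) -0.82 ± 0.05, adjusted p = 0.000141). OCLN was at 31.9, 37.1 and 39.8 CPM against 63.9, 60.9 and 59.8 CPM (log2(fold change) -0.78 ± 0.07, adjusted p = 0.000804), and CLDN7 at 89.6, 93.5 and 99.9 CPM against 148, 149.6 and 154 CPM (log2(fold change) -0.69 ± 0.04, adjusted p = 0.000172). ESRP1 (-0.57 ± 0.05, adjusted p = 0.000873) and EPCAM (-0.49 ± 0.04, adjusted p = 0.000530) were lower as well, with the KO and WT B libraries apart. The 5 above WT B were TWIST1 and TGFBI with ZEB1, VIM and FN1. ZEB1 was at 6.99, 6.89 and 6.82 CPM against 3.64, 4.35 and 3.91 CPM (log2(fold change) 0.78 ± 0.13, adjusted p = 0.00915), VIM at 3.60, 2.65 and 2.42 CPM against 1.74, 1.65 and 0.981 CPM (log2(fold change) 0.98 ± 0.27, adjusted p = 0.0621), and FN1 at 31.8, 32.1 and 31.2 CPM against 21.1, 21.8 and 20.6 CPM (log2(fold change) 0.57 ± 0.06, adjusted p = 0.00169). All 3 stayed below their levels in A549 WT B. SNAI2 did not pass (-1.001 ± 0.98, adjusted p = 0.592). Histone genes summed to 10684 to 12021 CPM in these KO libraries and 7223 to 7645 CPM in WT B. The part of this in the result was not tested.

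Since HCT116 had a second wild type, the same members were set beside all 6 wild-type libraries in CPM. Of 31 members with a mean of at least 1 CPM, 16 had all 3 KO libraries below the 6 wild-type libraries, beside 7.92% of 18376 genes, and 2 had them above (ZEB1 and TWIST1), beside 8.91%. The 16 were CDH1, CDH3, ESRP1, GRHL2, OVOL1, EPCAM, CLDN3, OCLN, TJP3, CRB3, MARVELD3, ST14, SPINT1, PRSS8, PROM2 and ITGB4. CDH1 had 45.5 to 51.96 CPM in the KO, 96.6 to 105 CPM in WT B and 102 to 223 CPM in WT A. The 6 wild-type libraries include the WT B libraries used above, so this count is not independent of the test. With WT A as control 11 members were called, 10 down and 1 up, beside 10.2% of all genes. CDH1 (log2(fold change) -1.56 ± 0.29, adjusted p = 0.0101), GRHL2 (-1.21 ± 0.14, adjusted p = 0.000901) and PROM2 (-2.72 ± 0.48, adjusted p = 0.00789) kept their calls, and TWIST1 did not (0.86, adjusted p = 0.0717). The call of CDH1 against WT B rests on a value next to the fold threshold, and was lost without S10 (-0.98), without S13 (-0.98) and with upper-quartile normalization (-0.9992). In a single fit of all HCT116 libraries, which includes S8 and S9, the log2(fold change) of CDH1 was -1.03 and that of GRHL2 -1.13 with adjusted p = 0.642 and 1, and 1 of the 5 calls, that of PROM2, was kept.

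Of the 79 related genes tested in this KO 4 were called (5.06%), beside 2.62% of all genes. Called desmosome genes were 0 of 8 tested by edgeR (7 at an unadjusted p under 0.05, 0 called by DESeq2) and called other junction genes 0 of 22 tested by edgeR (12 at an unadjusted p under 0.05, 0 called by DESeq2), with medians of -0.45 and -0.13. Of 8 epithelial transcription factors tested, EHF (-1.19 ± 0.06, adjusted p = 7.75e-05) and GRHL3 (-1.16 ± 0.37, adjusted p = 0.0960) were lower. SMAD7, an inhibitor of TGF-beta signalling, was lower (-1.27 ± 0.17, adjusted p = 0.00355), and the fibroblast collagen COL3A1 was at 0 counts in the KO libraries and at 0.287 ± 0.129 CPM (SD, n = 3) in WT B. Called other EMT regulators were 0 of 8 tested by edgeR (2 at an unadjusted p under 0.05, 0 called by DESeq2).

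**Figure D4:**
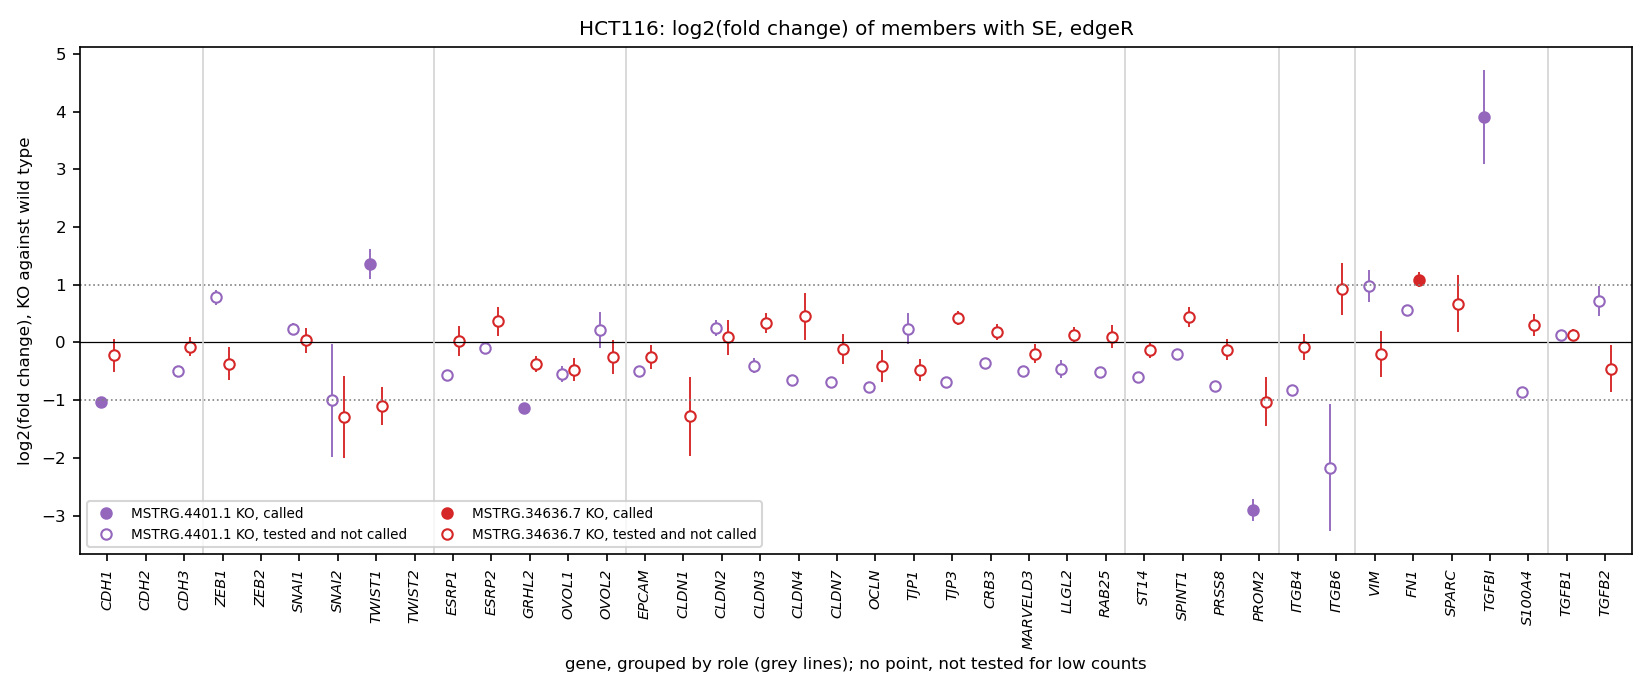
Points give the log2(fold change) of each tested member with its SE for MSTRG.4401.1 KO against HCT116 WT B (purple) and MSTRG.34636.7 KO against HCT116 WT A (red), genes ordered by role; filled points were called and dotted lines mark the fold threshold. In MSTRG.4401.1 KO most junction genes and proteases lie between 0 and -1, and in MSTRG.34636.7 KO FN1 is the filled point.

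In HCT116 MSTRG.34636.7 KO, 1 of 36 tested members was called, beside 1.34% of all genes (0.729% up and 0.607% down). FN1, the matrix glycoprotein fibronectin, was at 65.02, 61.97 and 66.9 CPM in the KO and 26.98, 33.9 and 30.1 CPM in WT A (log2(fold change) 1.09 ± 0.13, adjusted p = 0.0111). The groups did not overlap, which calling on the same libraries favours. The call was kept when any 1 library was left out, under the other settings that keep the 2 groups apart, and with WT B as control (1.59 ± 0.07). Beside all 6 wild-type libraries, 4 of 30 members at 1 CPM or more had the 3 KO libraries above (TJP3, LLGL2, FN1 and TGFB1), against 10.9% of genes, and 1 had them below (GRHL2), against 7.16%. The histone genes summed to 3901 to 4202 CPM in these KO libraries and 7288 to 8632 CPM in WT A, and the part of this in the result was not tested. The FN1 call was lost in the fit of all HCT116 libraries (log2(fold change) 1.09, adjusted p = 0.536). CDH1 was at 121, 125 and 129 CPM against 223, 102 and 109 CPM, where library 1A of WT A stood apart from the others, and its log2(fold change) was -0.22 ± 0.29, adjusted p = 0.770. VIM (-0.20 ± 0.40), ZEB1 (-0.37 ± 0.29), SNAI2 (-1.30 ± 0.71), ESRP1 (0.03 ± 0.27), GRHL2 (-0.38 ± 0.14) and EPCAM (-0.26 ± 0.20) were not called. CDH2, ZEB2, TWIST2 and TGFBI were not tested for low counts. DESeq2 also called TWIST1 (log2(fold change) -1.11 ± 0.39, adjusted p = 0.0704). FN1 was also the 1 member that passed by FDR alone, beside 2.15% of all genes. Of 17 TGF-beta receptors and targets tested 0 were up and 3 were down, CCN2 (-1.66 ± 0.26, adjusted p = 0.0371), THBS1 (-1.61 ± 0.15, adjusted p = 0.00478) and CCN1 (-1.28 ± 0.16, adjusted p = 0.0132). The actin-binding caldesmon gene CALD1 was the 1 of 17 other mesenchymal genes called (-5.39 ± 0.63, adjusted p = 0.0111), and CLDN18 the 1 of 22 other junction genes (1.15 ± 0.25, adjusted p = 0.0867). Called desmosome genes were 0 of 9 tested by edgeR (3 at an unadjusted p under 0.05, 1 called by DESeq2), called epithelial transcription factors 0 of 9 tested by edgeR (3 at an unadjusted p under 0.05, 0 called by DESeq2) and called other EMT regulators 0 of 7 tested by edgeR (3 at an unadjusted p under 0.05, 0 called by DESeq2).

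The 2 wild-type HCT116 sets differed in 1 of 35 tested members, beside 7.06% of all genes (3.16% higher and 3.9% lower in WT A). TJP1 (ZO-1), the tight junction scaffold, was at 261, 178 and 158 CPM in WT A and 112, 46.3 and 78.1 CPM in WT B (log2(fold change) 1.33 ± 0.31, adjusted p = 0.0384). Its call was lost without S14 (adjusted p = 0.131) and without WT A library 1A (adjusted p = 0.104). CDH1 (0.52 ± 0.29), VIM (0.91 ± 0.43), FN1 (0.51 ± 0.13), ZEB1 (0.50 ± 0.26), SNAI2 (0.36 ± 0.52), ESRP1 (0.16 ± 0.26), GRHL2 (0.07 ± 0.13) and EPCAM (0.07 ± 0.20) were not called, and FN1 passed by FDR alone (adjusted p = 0.0535). Untested were CDH2, ZEB2, TWIST2, SPARC and TGFBI. Of the 78 related genes tested 12 were called (15.4%), 6 higher and 6 lower in WT A. The TGF-beta receptor TGFBR2 was lower in WT A (-2.95 ± 0.13, adjusted p = 1.06e-05), the inhibitory SMAD6 higher (4.94 ± 0.24, adjusted p = 1.48e-05), and the junction genes F11R (-3.30 ± 0.31, adjusted p = 0.000366), SCRIB (-2.61 ± 0.42, adjusted p = 0.00618) and MARVELD2 (-1.57 ± 0.44, adjusted p = 0.0696) lower. CCN1 (1.66 ± 0.15, adjusted p = 0.000346) and CCN2 (1.46 ± 0.28, adjusted p = 0.0148), which were lower in MSTRG.34636.7 KO than in WT A, were higher in WT A than in WT B. Called desmosome genes were 0 of 8 tested by edgeR (0 at an unadjusted p under 0.05, 0 called by DESeq2), and called epithelial transcription factors 0 of 8 tested by edgeR (3 at an unadjusted p under 0.05, 0 called by DESeq2).

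HCT116 MSTRG.2513.6 KO was compared with the same WT B libraries as MSTRG.4401.1 KO and WT A were. As labelled, 1 of 37 tested members was called, beside 0.933% of all genes (0.66% up and 0.273% down). PROM2 was at 1.54, 0.826 and 0.454 CPM in S11, S8 and S9 and 16.9, 16.5 and 15.1 CPM in WT B (log2(fold change) -3.97 ± 0.41, adjusted p = 0.0687), and it is low in A549 as well. The call was lost without S8, S9 or any WT B library (adjusted p = 0.275 to 0.425). Over all genes the up share of calls was 70.7%, and 81.2% with DESeq2. The other members had large values with large errors, such as VIM at 9.64 ± 2.15, FN1 at 4.34 ± 0.89, ZEB1 at 2.998 ± 0.59, SNAI2 at 2.04 ± 0.89, CDH1 at -1.06 ± 0.39, ESRP1 at -1.97 ± 2.26, GRHL2 at -3.21 ± 2.004 and EPCAM at -2.34 ± 1.67, none called. CDH2, TWIST2 and TGFBI were not tested, since S11 and WT B were at or near 0. Of the related genes TGFBR3 was called (1.94 ± 0.34, adjusted p = 0.0974), while DESeq2 called 12 TGF-beta receptors and targets and 5 other mesenchymal genes. Without S11, 38 of the 40 members were called, 17 higher and 21 lower than in HCT116 WT B, beside 37.2% of all genes. Without S8 and S9, the single library S11, assumed to vary like WT B, differed in 8 members, beside 8.69% of all genes. GRHL2 was at 17.9 CPM in S11 (log2(fold change) -1.64 ± 0.08, adjusted p = 0.000573) and PROM2 at 1.54 CPM (-3.47 ± 0.18, adjusted p = 0.000727). FN1 was at 62.7 CPM (1.48 ± 0.08, adjusted p = 0.000778), VIM at 6.03 CPM (1.96 ± 0.34, adjusted p = 0.0129), ZEB1 at 10.6 CPM (1.34 ± 0.19, adjusted p = 0.00713), TGFB2 at 6.91 CPM (2.63 ± 0.23, adjusted p = 0.00187) and TJP3 at 81.7 CPM (1.06 ± 0.08, adjusted p = 0.00128), and ITGB6 was at 0 counts. A single library gives no replicate check. The fibroblast markers summed to 79.3 CPM in S11 and to at most 63.4 CPM in the other HCT116 groups. Its histone genes summed to 2561 CPM, the lowest of the 24 libraries, against 7223 to 7645 CPM in WT B. The part of these in the calls of S11 was not tested.

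CDH1, TWIST2, ZEB2 and SPARC, which passed the FDR in A549 MSTRG.2513.6 KO, were in S8 and S9 nearer to that group than to A549 WT B. CDH1 was at 25.02 and 26.1 CPM in these. Levels of CDH1 ranged over 21.1 to 25.4 CPM for the A549 KO of the same transcript, and over 60.8 to 68.1 CPM for A549 WT B. TWIST2 was at 25.3 and 22.1 CPM against 22.02 to 23.9 and 10.2 to 12.7 CPM, and ZEB2 at 9.98 and 11.01 CPM against 8.54 to 10.1 and 16.7 to 20.1 CPM. SPARC, at 3.77 and 4.13 CPM, lay between that KO (2.47 to 2.92 CPM) and A549 WT B (8.04 to 8.70 CPM).

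**Figure D5:**
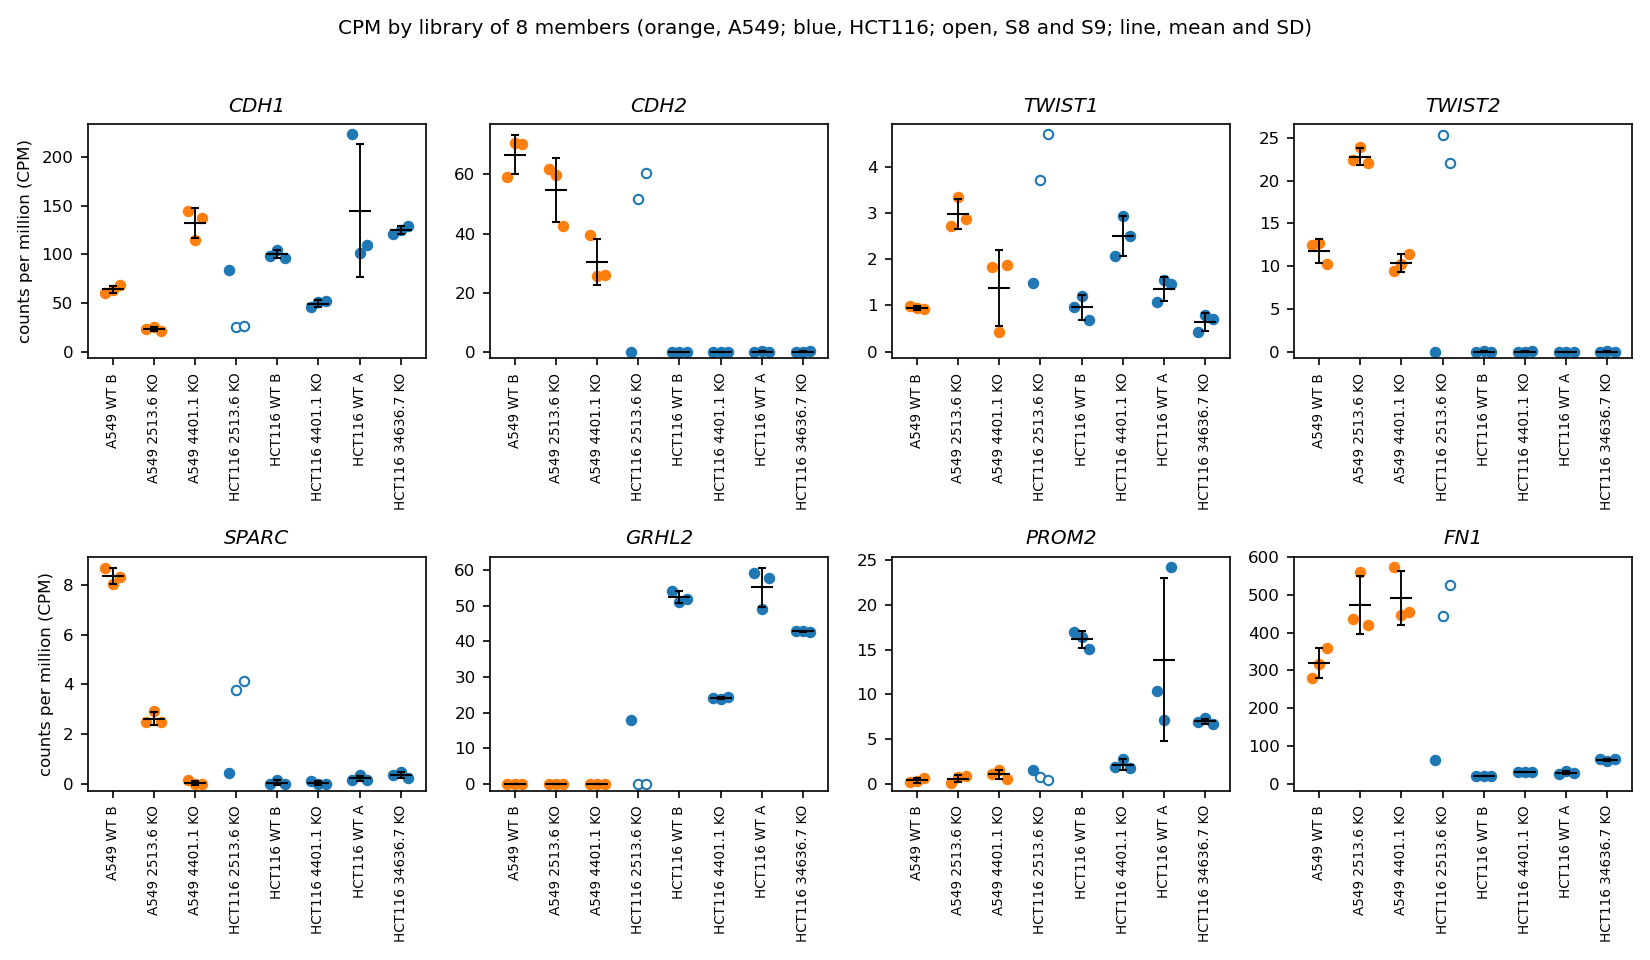
CPM (vertical axis, linear) of 8 members in each library by group, orange for A549 and blue for HCT116, open circles for S8 and S9, with a line for the group mean and bars for the SD (not drawn for the HCT116 MSTRG.2513.6 KO group). CDH1 is lowest in MSTRG.2513.6 KO among the A549 groups and in MSTRG.4401.1 KO among the HCT116 groups with 3 alike libraries, SPARC falls in both A549 KOs, and FN1 is above WT A in HCT116 MSTRG.34636.7 KO.

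For some members the log2(fold change) of MSTRG.4401.1 KO against wild type differed between the lines. The deletion and other differences between the KO lines cannot be told apart in this design. The mitochondrial share of A549 MSTRG.4401.1 KO, given above, moves with this comparison too, and its part was not tested. In a test of the interaction over 12 libraries, 15 of 40 members were called, 8 with a higher and 7 with a lower log2(fold change) in A549 than in HCT116, beside 11.4% of all genes (7.43% and 3.98%). Over all genes 65.1% of calls were positive, and 76.5% with upper-quartile normalization. For CDH1 the difference was 1.97 ± 0.14, adjusted p = 5.28e-06, with 0.97 ± 0.11 in A549 and -1.03 ± 0.06 in HCT116. TJP3 had 1.88 ± 0.23 in A549 and -0.69 ± 0.07 in HCT116 (difference 2.52 ± 0.23, adjusted p = 3.13e-05), and PROM2 1.37 ± 0.51 and -2.91 ± 0.19 (difference 4.26 ± 0.51, adjusted p = 0.000204). These epithelial members were above wild type in A549 and below it in HCT116. VIM, at -0.85 ± 0.14 and 0.98 ± 0.27, went the other way (difference -1.86 ± 0.29, adjusted p = 0.00116), as did TGFB2 at -1.18 ± 0.11 and 0.72 ± 0.26 (difference -1.93 ± 0.25, adjusted p = 0.000322). FN1 was above wild type in both lines (difference -0.06 ± 0.14, adjusted p = 0.847). ZEB1 (-0.79 ± 0.18, adjusted p = 0.0106) and EPCAM (0.67 ± 0.16, adjusted p = 0.0123) passed by FDR alone, and CDH2, SNAI2 and ESRP1 were not called (-4.32 ± 1.73, -3.29 ± 1.63 and -2.26 ± 1.03). The claudin CLDN2 (1.11 ± 0.20, adjusted p = 0.00284), LLGL2 (adjusted p = 0.00834, next to the fold threshold) and PRSS8 (1.10 ± 0.39, adjusted p = 0.0689) were called with higher values in A549, and SPINT1 (-2.36 ± 0.52, adjusted p = 0.00787) and TGFB1 (-1.09 ± 0.16, adjusted p = 0.000874) with lower ones. Called on members near 0 in one line were GRHL2 (5.41 ± 1.60, adjusted p = 0.0389) and OVOL1 (4.83 ± 1.73, adjusted p = 0.0785), with at most 4 counts in any A549 library of the test, and ZEB2 (-1.10 ± 0.31, adjusted p = 0.0916), SPARC (-6.70 ± 2.14, adjusted p = 0.0462) and TGFBI (-5.06 ± 0.62, adjusted p = 0.000239), near 0 in HCT116, so that the size of these 5 depends on the prior count of the fit. With each of the 12 libraries left out in turn, CDH1, TJP3, PROM2, SPINT1, VIM, TGFBI and TGFB2 kept their calls in 12 of 12 fits, GRHL2, SPARC and TGFB1 in 11, CLDN2 in 10, ZEB2 and LLGL2 in 5, and OVOL1 and PRSS8 in 3. LLGL2 was also lost with DESeq2 and with no filter, PRSS8 with no filter and at FDR < 0.05, and ZEB2 with DESeq2, with upper-quartile normalization and at FDR < 0.05. With at least 10 counts in every library, SPINT1 and the 5 members near 0 in one line had no call. Among the related genes DSC3 (1.73 ± 0.22, adjusted p = 0.000273), DSC2 (1.199 ± 0.15, adjusted p = 0.000334) and EHF (1.62 ± 0.37, adjusted p = 0.00972) had higher values in A549, and THBS1 (-1.91 ± 0.14, adjusted p = 7.57e-06) a lower one. The interaction of the MSTRG.2513.6 KO with cell line called 12 of 40 members, 1 with a higher and 11 with a lower value in A549, beside 7.95% of all genes (0.901% and 7.05%). The higher one was PROM2 (4.51 ± 0.87, adjusted p = 0.0316). The 11 lower were CDH2 (-14.32 ± 3.24), ZEB1 (-2.91 ± 0.60), ZEB2 (-7.89 ± 1.33), TWIST2 (-9.01 ± 2.30), CLDN1 (-9.07 ± 1.84), CLDN2 (-2.06 ± 0.45), VIM (-9.66 ± 1.84), FN1 (-3.72 ± 0.86), SPARC (-7.40 ± 1.54), TGFBI (-15.37 ± 3.10) and TGFB2 (-6.73 ± 1.19), with adjusted p from 0.0215 to 0.0577. SNAI2 (-1.01 ± 0.98), ESRP1 (0.21 ± 3.84), GRHL2 (8.29 ± 4.39) and EPCAM (1.42 ± 1.75) were not called. CDH1 was not called in this test (-0.39 ± 0.44, adjusted p = 0.696). CDH2, ZEB2, TWIST2, CLDN1, SPARC and TGFBI did not exceed 0.248 CPM in HCT116 WT B, so their sizes depend on the prior count. Without S8 and S9 the test called 10 members, beside 5.9% of all genes. PROM2, ZEB1, ZEB2, VIM, SPARC and TGFB2 were 6 of the 12 and kept direction and call, and CDH1 (-1.13 ± 0.16, adjusted p = 0.00303), GRHL2, ITGB6 and ST14 were added. CDH2, TWIST2, CLDN1, CLDN2, FN1 and TGFBI lost their calls, and TWIST2 and TGFBI turned positive. S11 had 0 CPM of TWIST2 and TGFBI, and HCT116 WT B had 3 and 6 counts of them. Their signs rest on these few counts, and their sizes on the prior count. The test then has S11 alone for the HCT116 KO, where SPARC and ZEB2 were at 0.440 and 0.385 CPM and ITGB6 at 0 CPM. GRHL2 and ST14 did not exceed 0.289 CPM in the A549 groups compared. The sizes for these members depend on the prior count. With each of the 12 libraries left out in turn, ZEB2, PROM2 and TGFB2 kept their calls in 12 of 12 fits, VIM in 11, ZEB1 in 10, CLDN1 and SPARC in 9, TGFBI in 7, CLDN2 in 5, FN1 in 2, and CDH2 and TWIST2 in 1.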

How the data were processed

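RNA-seq was analysed for 24 libraries in 8 groups of 3, grouped by their labels. Per the labels, reads were prepared with a directional kit after ribosomal RNA depletion, and the submitters' processing notes name Trim Galore 0.6.6, FastQC 0.11.9, HISAT2 2.2.1 and hg38. The paper's methods name StringTie for quantification. The authors deposited whole-number counts per gene symbol, not normalized and not pooled. Whether strand was used in counting is not given in the sources used here, and 21 of the 40 members share exon sequence with a gene on the opposite strand, and 5 with one on the same strand (GENCODE). From the deposited counts, CPM was computed from library totals, without TMM. A total of 3 symbols not listed in all libraries were left out.

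Each comparison was fitted with edgeR 4.0.16 (limma 3.58.1, R 4.3.3) on its own groups over all genes that passed filterByExpr, with TMM, glmQLFit and glmQLFTest, and Benjamini-Hochberg adjustment over all genes tested. Calls required FDR < 0.1 together with |log2(fold change)| > 1, the thresholds of the study's methods. Values after ± are SE of log2(fold change) unless marked SD. A gene at 0 counts in a group has a fold against 3 counts per library, a lower bound. Pooled ratios of members with few counts carry exact (Clopper-Pearson) 95% intervals, which cover counting error only. The reads carried no molecular identifiers and may repeat a molecule. Alternatives were DESeq2 1.42.0, upper-quartile normalization, no filter, at least 10 counts in every library, FDR < 0.05, no fold threshold, each library left out in turn, all libraries of a line in one fit, the other HCT116 wild type, the fit without S8 and S9, and the replicate number as a block. The fits were tested on simulated counts. The text names every called member and, in each comparison, CDH1, CDH2, VIM, FN1, ZEB1, SNAI2, ESRP1, GRHL2 and EPCAM where tested, with up to 3 called genes per direction of each related list, of which 1 gene is not reported here. Members, lists and comparisons were chosen with earlier results of these data known. The comparison with all 6 HCT116 wild-type libraries and the level of other members named were chosen after their values were seen. The deletions themselves and the transcripts' target genes were not analysed here.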

Additional observations from a re-analysis of the deposited data

Results flagged for a closer look

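The members listed here changed differently in A549 and HCT116 by a test of the difference itself (edgeR interaction, A549 effect minus HCT116 effect on the log2 scale, 12 libraries in each test). For MSTRG.4401.1 KO the difference was positive for CDH1 (1.97), TJP3 (2.52), CLDN2 (1.11), LLGL2 (1.00), PRSS8 (1.10), PROM2 (4.26), GRHL2 (5.41) and OVOL1 (4.83). It was negative for VIM (-1.86), TGFB1 (-1.09), TGFB2 (-1.93), ZEB2 (-1.10), SPINT1 (-2.36), SPARC (-6.70) and TGFBI (-5.06). These 15 members of 40 stood beside 11.4% of all genes. With each library left out in turn, OVOL1 and PRSS8 kept their calls in 3 of 12 fits, and ZEB2 and LLGL2 in 5. SPINT1 was low in A549 MSTRG.4401.1 KO, at 0 to 0.241 CPM, and PROM2 in A549 WT B, at 0.255 to 0.698 CPM. GRHL2 and OVOL1 did not exceed 0.155 CPM in the A549 groups compared, SPARC and ZEB2 did not exceed 0.194 CPM in HCT116, and TGFBI did not exceed 0.814 CPM there, so the sizes for these 5 depend on the prior count of the fit. The mitochondrial share of counts was 3.50% to 7.87% in A549 MSTRG.4401.1 KO and 1.90% to 2.19% in HCT116 MSTRG.4401.1 KO, and its part in these differences was not tested.

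For MSTRG.2513.6 KO, 12 members were called, beside 7.95% of all genes, with PROM2 positive (4.51) and CDH2 (-14.32), ZEB1 (-2.91), ZEB2 (-7.89), TWIST2 (-9.01), CLDN1 (-9.07), CLDN2 (-2.06), VIM (-9.66), FN1 (-3.72), SPARC (-7.40), TGFBI (-15.37) and TGFB2 (-6.73) negative. S8 and S9 have A549 levels of the members. Without S8 and S9, TWIST2 (3.89) and TGFBI (3.26) had the opposite sign. S11 had 0 CPM of both and HCT116 WT B 3 and 6 counts, so these signs rest on few counts. In the test of all 12 libraries, CDH2, ZEB2, TWIST2, CLDN1, SPARC and TGFBI did not exceed 0.248 CPM in HCT116 WT B. Their sizes depend on the prior count of the fit. CDH1 (-0.39 ± 0.44, adjusted p = 0.696), SNAI2 (-1.01 ± 0.98), ESRP1 (0.21 ± 3.84), GRHL2 (8.29 ± 4.39) and EPCAM (1.42 ± 1.75) were not called.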

How the results depend on the processing

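The members called in A549 MSTRG.2513.6 KO (4 genes) kept direction and call when any 1 library was left out. Calls that other members lost when 1 library was left out are given beside those results. Without the fold threshold, the MSTRG.2513.6 KO of A549 had 11 members, the MSTRG.4401.1 KO 20 in A549 and 25 in HCT116, and 6 passed in WT A against WT B. The last stands beside 1517 higher and 1831 lower of 27280 genes, and the shares for the others are given above. In one fit of all HCT116 libraries, S8 and S9 included, calls came to 1 for MSTRG.4401.1 KO, 0 for MSTRG.34636.7 KO, 17 for MSTRG.2513.6 KO and 0 for WT A against WT B. Of all 30014 genes in that fit, 6 were up and 21 down, 43 and 47, 2452 and 1035, and 682 and 929, in the same order. With the other HCT116 wild type, member calls came to 11, 3 and 4 for the same 3 KOs, and TJP1 turned to -1.10 in MSTRG.4401.1 KO. Over all genes these stood beside 1273 up and 1470 down of 26786, 2151 and 1908 of 27971, and 582 and 318 of 26497. DESeq2 called 2 members in MSTRG.34636.7 KO, beside 477 up and 410 down of 28816 genes. In HCT116 MSTRG.2513.6 KO it called 13, beside 2262 up and 523 down of 26374 genes. There upper-quartile normalization called 2 (244 up and 72 down of all genes), FDR < 0.05 called 0 (0 and 1) and no filter 0 (4 and 2). A minimum of 10 counts called 6 there, beside 796 up and 179 down of 19809 genes. A minimum of 10 counts in every library, which tests fewer genes, left 23 calls between the wild-type lines and 5 in the MSTRG.2513.6 interaction. Over all genes these stood beside 2691 up and 2727 down of 20559, and 250 and 1069 of 18988. Without S8 and S9, 8 members were called in HCT116 MSTRG.2513.6 KO, TJP3 turned to 1.06 and ITGB6 to -7.64, and in the interaction TWIST2 turned to 3.89, ITGB6 to 6.01 and TGFBI to 3.26. Leaving out 1 library gave 0 to 38 calls in HCT116 MSTRG.2513.6 KO, 0 to 2 in WT A against WT B, 3 to 35 in the MSTRG.2513.6 interaction and 10 to 17 in the MSTRG.4401.1 interaction, and in the MSTRG.2513.6 interaction RAB25 ranged from -4.90 to 11.49 and SPINT1 from -1.57 to 6.03. Without S11 the 38 and 35 calls are those of S8 and S9 alone. They stood beside 37.2% of all genes, and beside 3783 positive and 4825 negative of 30834 genes. Over all genes, leaving out 1 library gave 664 to 1017 higher and 864 to 1254 lower in WT A against WT B. In the MSTRG.4401.1 interaction it gave 1773 to 2410 positive and 1053 to 1589 negative. In the MSTRG.2513.6 interaction it gave 60 to 3783 and 257 to 4825. The cause of the other changes was not tested. The labels do not say whether replicate numbers shared by groups pair the libraries. Same-number correlations were 0.012, 0.018 and 0.035 for MSTRG.34636.7 KO and WT A, and different-number ones ranged from -0.022 to 0.0014. With 3 libraries per group these values cannot decide it. With the replicate block, calls were 1 in MSTRG.34636.7 KO, 2 in WT A against WT B and 35 between the wild-type lines. Over all genes these stood beside 79 up and 87 down of 28816, 781 and 1083 of 27280, and 4614 and 4923 of 27882. Depth limits members near 0, where 3 counts are worth 0.0293 to 0.116 CPM.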
